A study of Mus musculus with 6 samples.

Results

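The family of miR-15, miR-16, miR-195, miR-322 and miR-503 is a group of miRNAs that start alike at their 5′ end. Its members were taken by name from the mouse probes of the array: miR-15a, miR-15b, miR-16, miR-195a, miR-497, miR-322 and miR-503, both arms of each hairpin. This gave 15 of the 1126 mouse miRNA probes. A probe was counted as measured where the mean of its spots, after subtraction of local background, reached 50 on 3 or more of the 6 arrays. By that rule 6 family probes were measured (miR-15a-5p, miR-15b-5p, miR-16-5p, miR-195a-5p, miR-503-5p and miR-503-3p), against 372 of all mouse probes, and 9 were low. The cells were CT26, a mouse colorectal cancer line. One line carried the shRNA-TGF-β1-pSUPER gfp-neo vector and the other the shRNA-Control-pSUPER gfp-neo vector, so both carried the same plasmid backbone with its GFP and neomycin markers. At 24, 48 and 72 h total RNA of each line was labelled with the dye Hy3 and read on miRNA arrays with locked nucleic acid probes, 3 arrays for each line, from cultures grown and harvested independently. The series describes stable transfection while the sample titles count hours of transfection, so the start of the clock is not settled, and whether each line is 1 clone is not given in the sources used here. The knockdown of TGF-β1 could not be checked, because the array holds miRNA probes.

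A miRNA guides Argonaute to mRNAs that pair with its seed, bases 2 to 8 from the 5′ end, and these mRNAs are then translated less and decay faster. The family is known for restraining the cell cycle and survival through targets such as cyclin D1, cyclin E1 and Bcl2. miR-15a and miR-16 come from a cluster at the Dleu2 locus whose human counterpart is often deleted in chronic lymphocytic leukaemia. miR-15b and the other copy of miR-16 lie in an intron of Smc4. miR-195a and miR-497 form another cluster. miR-322, the mouse counterpart of human miR-424, and miR-503 lie together on the X chromosome.

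The mature 5p sequences are shown because the family is defined by their shared start and because the probes have to tell them apart. All 15 members matched a RefSeq entry (build GRCm38.p6), and the array's miR-497 is listed there as miR-497a. Letters run 5′ to 3′, with the seed in capitals.
miR-15a-5p (chr14:61632075-61632096, minus strand): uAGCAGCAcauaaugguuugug
miR-15b-5p (chr3:69009775-69009796, plus strand): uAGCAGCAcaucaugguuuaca
miR-16-5p (chr14:61631936-61631957, minus strand, and chr3:69009918-69009939, plus strand): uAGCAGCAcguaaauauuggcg
miR-195a-5p (chr11:70235062-70235082, plus strand): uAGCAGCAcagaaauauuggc
miR-497-5p (chr11:70234730-70234751, plus strand): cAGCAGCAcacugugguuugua
miR-322-5p (chrX:53054306-53054327, minus strand): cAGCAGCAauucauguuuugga
miR-503-5p (chrX:53054027-53054049, minus strand): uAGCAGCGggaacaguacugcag

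Of these 7 arms, 6 had the same seed, and miR-503-5p differed from them at base 8. The seed of the 6 pairs with UGCUGCU and that of miR-503-5p with CGCUGCU. Counted position by position from the 5′ end, miR-16-5p and miR-195a-5p were identical at 19 of 21 positions and miR-15a-5p and miR-15b-5p at 18 of 22. miR-503-5p matched the others at 10 to 12 positions. Whether the most alike members bind each other's probes was not tested. The 2 copies of miR-16 give the same 5p sequence and share 1 probe. RefSeq listed 4 further mouse miRNAs with the same seed, miR-195b, miR-6342, miR-6353 and miR-6419. The array had no probe under these names, so they are not analysed here.

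The 4 measured 5p arms of the miR-15, miR-16 and miR-195 branch had 1 pattern over the arrays, and both arms of miR-503 had another. Levels are given as background-subtracted intensity, the mean of 4 spots, and are compared only within a probe. At 24, 48 and 72 h miR-16-5p stood at 193, 1629.5 and 47.2 in the knockdown. In the control it stood at 940.5, 1.75 and 984. It was thus bright in the knockdown at 48 h and in the control at 24 and 72 h, and under 50 in the control at 48 h and in the knockdown at 72 h.

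miR-15a-5p, its cluster partner, had intensities of 138, 849.8 and 6.25 in the knockdown at 24, 48 and 72 h. In the control it had 468, -11.8 and 327.5. For miR-15b-5p the values were 83.5, 759.5 and 4.5 in the knockdown and 382, -36 and 527 in the control. Each of these probes was under 50 on the same pair of arrays as miR-16-5p, and the 2 lines overlapped.

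miR-195a-5p was at or above 50 on all 6 arrays. Its intensities were 390.2, 1669 and 88.5 in the knockdown and 1999, 177 and 2532.5 in the control at 24, 48 and 72 h. The control was brightest at 72 h and dimmest at 48 h, the knockdown brightest at 48 h and dimmest at 72 h, and the ranges of the lines overlapped.

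miR-503-5p had 315, 228 and 236 in the knockdown and 264, 246 and 91.5 in the control. The passenger arm, miR-503-3p, had 1014, 824.5 and 641 in the knockdown and 954.5, 963 and 17.8 in the control. Both arms of miR-503 were lowest on the control array of 72 h, and the lines overlapped.

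**Figure D1:**
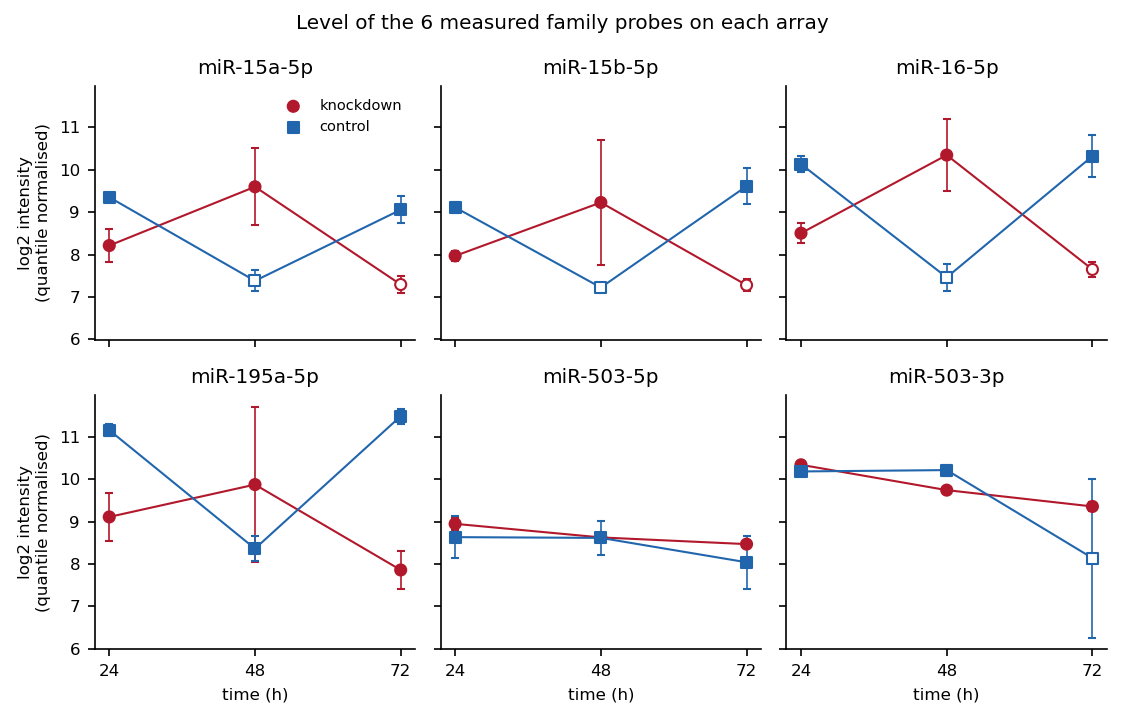
Quantile-normalised log2 intensity (vertical axis) of the 6 measured family probes against time in hours, for the knockdown line (red circles) and the control line (blue squares), 1 array per point. Bars are the SD over 4 replicate spots, and open symbols mark arrays where the mean intensity was under 50. The lines cross between time points for miR-15a-5p, miR-15b-5p, miR-16-5p and miR-195a-5p and lie close together for both arms of miR-503 at 24 and 48 h.

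The members below the filter included the passenger strands of miR-15a, miR-15b, miR-16 and miR-195a, both arms of miR-497 and both arms of miR-322. Of the 9, 6 never reached 50, namely miR-15a-3p, miR-15b-3p, miR-16-1-3p, miR-16-2-3p, miR-322-3p and miR-497-3p, with intensities from -117 to 17.5. miR-322-5p reached 50 on 1 array, the control at 48 h, where it stood at 179. miR-195a-3p did so on the 72 h arrays of both lines, at 202 in the knockdown and 80 in the control. miR-497-5p did so in the control at 24 h (51.5) and 72 h (186.5), but at 72 h 1 spot had 739 and the other 3 had 2 or 3. miR-497-5p and miR-322-5p have the seed of the measured miR-15, miR-16 and miR-195 arms, but neither reached 50 on the knockdown array of 48 h. miR-322-5p was highest on the control array of 48 h, where miR-15a-5p, miR-15b-5p and miR-16-5p were under 50.

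The comparison of the lines asked whether the family differs when TGF-β1 is knocked down. None of the 6 measured members passed the threshold in limma with time as a block, an adjusted p under 0.05, and 0% of the 372 measured mouse probes did. At an unadjusted p under 0.05 there was 1 probe of the 372, and no family member. The members' mean differences, knockdown minus control on the quantile-normalised log2 scale, had a median of -0.35, and the median over all tested probes was -0.11. For miR-195a-5p the mean log2 level of the knockdown was 8.95 ± 1.02 (SD, n = 3) and that of the control 10.34 ± 1.72 (SD, n = 3). They differed by -1.39 (95% interval -3.38 to 0.61, limma adjusted p = 0.998). The differences of miR-15b-5p, miR-16-5p and miR-15a-5p were -0.49, -0.47 and -0.23. Those of miR-503-5p and miR-503-3p were 0.25 and 0.30, with intervals from -1.03 to 1.53 and from -1.05 to 1.65. They turned to -0.08 and -0.46 over the spots in blocks 1 to 18 of the array and were 0.76 and 0.97 over those in blocks 19 to 36, so their sign depended on the spots used. The arrays of a line come from different time points, so the p-values measure only how far the difference between the lines varies over these times. In total RNA from a culture, fewer cells with a miRNA and less of it per cell cannot be told apart.

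These means averaged opposite differences. At 24 h, 4 of the 6 measured members were lower in the knockdown by at least 2-fold, and 8.47% of the 413 mouse probes at or above 50 on either array were. At 48 h the same 4 were higher by at least 2-fold, as were 21.5% of 441 probes. At 72 h they were lower by at least 2-fold again, as were 25.3% of 454 probes. Over the 3 times the members' median log2 differences were -1.14, 1.76 and -2.05, where the medians over all 372 tested probes were -0.12, 0.19 and -0.39. Each time point rests on 1 array of each line and has no test.

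For miR-16-5p the lines differed by -1.63 ± 0.15 (log2, SE over spots) at 24 h, by 2.88 ± 0.46 at 48 h and by -2.67 ± 0.26 at 72 h. The error over spots covers spot noise only. The control value at 48 h lay below the lowest level of a mouse probe at 50 on that array. Set against that lowest level, the mean over spots of miR-16-5p was 6.79-fold higher in the knockdown there. For miR-15a-5p the difference was -1.14 ± 0.19 at 24 h. Set against the lowest such level of the dimmer array, its mean over spots was 4.04-fold higher in the knockdown at 48 h. In the control it was 3.05-fold higher at 72 h. For miR-15b-5p the difference at 24 h was -1.14 ± 0.09. Bounds set in the same way on its mean over spots were at least 3.13-fold higher in the knockdown at 48 h. At 72 h they were at least 4.48-fold higher in the control. The bounds do not hold for each set of blocks alone. For miR-195a-5p, measured on all arrays, the differences were -2.05 ± 0.29, 1.51 ± 0.93 and -3.63 ± 0.24. On this normalised scale, with its background offset of 50, that is 4.13-fold lower, 2.85-fold higher and 12.4-fold lower in the knockdown. The size depends on the scale: with the authors' ratio the log2 differences at 24 and 48 h were -2.24 and 2.98. The 48 h error of miR-195a-5p was the largest of these 4 members.

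miR-503-5p differed by 0.31 ± 0.26, 0.01 ± 0.20 and 0.43 ± 0.31 at the 3 times. miR-503-3p differed by 0.16 ± 0.05 and -0.47 ± 0.08 at 24 and 48 h and by 1.22 ± 0.94 at 72 h. Of the 372 tested probes, 18 (4.84%) were lower, higher and lower by at least 2-fold at the 3 times, and 4 of these 18 were the family members above. By sign alone 115 probes (30.9%) alternated in this way.

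**Figure D2:**
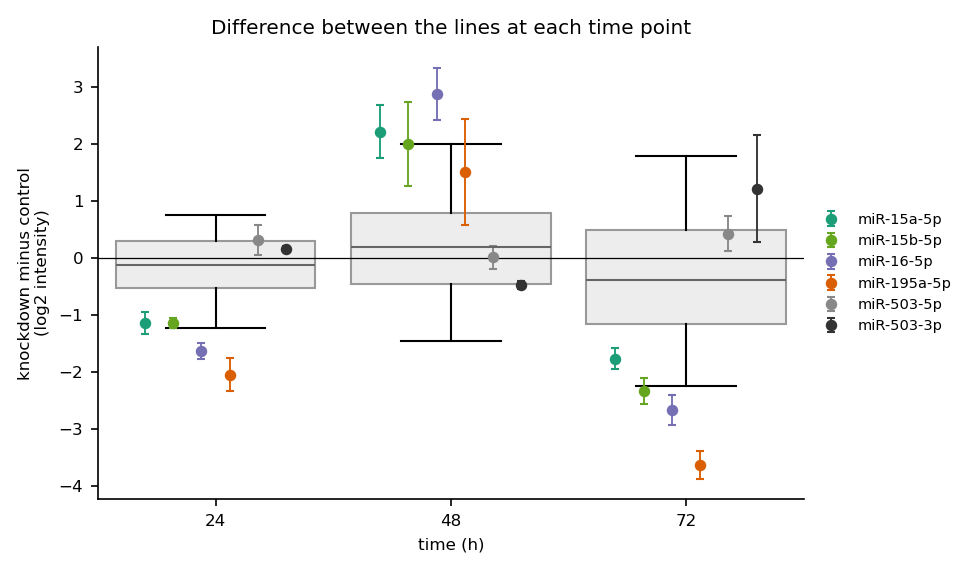
Difference between the lines (knockdown minus control, log2 intensity, vertical axis) at 24, 48 and 72 h. Coloured points are the 6 measured family probes with the SE over spots, grey boxes the quartiles of all 372 tested probes and whiskers their 5th to 95th percentile. Points of miR-15a-5p, miR-15b-5p, miR-16-5p and miR-195a-5p lie below 0 at 24 and 72 h and above 0 at 48 h, while miR-503-5p stays between 0.01 and 0.43.

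The time course was tested next. No member passed for a slope over both lines: 0% of the 372 probes did in limma. An unadjusted p under 0.05 was found for 9 probes, the family's miR-503-3p among them. The largest slope in the family was that of miR-503-3p, -0.76 ± 0.33 (SE) per day on the log2 scale (95% interval -1.50 to -0.02, limma adjusted p = 0.999). That slope was -0.28 without the 72 h arrays and -1.23 without the 24 h arrays. It includes the control value at 72 h, which averaged spots of 776 and 812 with spots of -358 and -1159 under high local background. The slopes of the other 5 members lay between -0.30 and -0.05. Without the 24 h arrays those of miR-195a-5p, miR-15b-5p and miR-16-5p turned to 0.55, 0.22 and 0.08, and without the 72 h arrays that of miR-195a-5p was -1.02.

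A term for the line at 48 h asked whether the difference at 48 h departs from that at 24 and 72 h. It was set up with the opposite 48 h differences already known, it leaves 1 residual degree of freedom, and it supports nothing on its own. It passed in limma for 2 of the 6 members, against 3.49% of the 372 probes (13 probes, all higher at 48 h). For miR-16-5p the term was 5.04 ± 1.39 (SE, limma adjusted p = 0.0172) and for miR-195a-5p 4.35 ± 1.25 (SE, limma adjusted p = 0.0232). miR-15b-5p had 3.74 and miR-15a-5p 3.67 (limma adjusted p = 0.114 and 0.116). miR-503-5p had -0.36, with an interval from -3.13 to 2.41, and miR-503-3p -1.16, with one from -3.62 to 1.30. miR-15b-5p and miR-15a-5p also passed with the authors' ratio (limma adjusted p = 0.0406 for both) and without trend and robust variances (limma adjusted p = 0.0227 and 0.0269). In blocks 19 to 36 alone none of the members passed. The 48 h arrays stood apart in other ways. On the control array of 48 h 321 mouse probes reached 50, the fewest of any array, and median background was 181, the highest. On the knockdown array of 48 h the 23 probes for other small RNAs had a median intensity of 595, against 66.5 to 117 on the other 5 arrays. The part of these in the family's 48 h values was not tested. Without the 48 h arrays 3 probes were called for the line difference, among them miR-195a-5p at -2.84 (limma adjusted p = 0.0341). The others of its branch had -2.15 (miR-16-5p), -1.74 (miR-15b-5p) and -1.45 (miR-15a-5p), with limma adjusted p = 0.270, 0.473 and 0.572. That fit drops the time already known to differ in sign and leaves 1 residual degree of freedom, so its p-values are no independent support. Without the 24 h arrays miR-195a-5p had -1.06, miR-15b-5p -0.16, miR-16-5p 0.11 and miR-15a-5p 0.23. Without the 72 h arrays they had -0.27, 0.43, 0.63 and 0.54, and no probe was called in either fit. The sign of the mean difference of miR-15a-5p, miR-15b-5p and miR-16-5p thus depended on which times were averaged.

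The replicate spots showed where on the array the 48 h values came from. Each probe has 2 spots in blocks 1 to 18 of the array and 2 in blocks 19 to 36. On the knockdown array of 48 h the spots of miR-195a-5p in the first set had intensities of 3231 and 3041, and those in the last set 258 and 147. For miR-15b-5p they were 1367 and 1458 against 156 and 57. For miR-15a-5p they were 1347 and 1332 against 455 and 265, and for miR-16-5p 2381 and 2314 against 1276 and 547. All 4 members were thus brighter in the first set of blocks, by 15.5 times for miR-195a-5p, 13.3 for miR-15b-5p, 3.72 for miR-15a-5p and 2.58 for miR-16-5p. For miR-195a-5p mean local background was 156.5 against 127 and mean foreground 3292.5 against 329.5, so the gap lay in the foreground. Smaller gaps were found on other arrays. On the knockdown array of 24 h the ratios were 2.42 for miR-195a-5p, 2.14 for miR-15a-5p, 1.53 for miR-16-5p and 0.988 for miR-15b-5p. On the control array of 72 h they were 1.24, 1.78, 2.00 and 1.94, and on that of 24 h they ran from 1.02 to 1.19. The control array of 48 h went the other way, with a ratio of 0.631 for miR-195a-5p. The other members of the branch were under 50 there in both sets.

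Most other probes had no such gap. On the knockdown array of 48 h 15.6% of the 372 tested probes were at least 2-fold brighter in the first set after background correction, and 0.538% in the last. Among 27 other tested probes in the blocks of miR-195a-5p and miR-15a-5p the median gap was 0.63 on the log2 scale, and 7 were at 2-fold or more. For miR-195a-5p itself it was 3.16. Among the 20 other tested probes in the blocks of miR-16-5p and miR-15b-5p the median was 0.26, with 5 at 2-fold or more and a highest gap of 4.16. With each set of blocks normalised alone, the 48 h difference of miR-195a-5p was 2.72 in the first set and 0.12 in the last. For miR-15b-5p it was 2.90 and 0.91, for miR-15a-5p 2.82 and 1.63 and for miR-16-5p 3.33 and 2.40. At 24 h the 4 members were lower in the knockdown in both sets, by -0.89 to -2.45, and at 72 h too, by -1.44 to -3.74. The sign at 48 h also held in both sets, but for miR-195a-5p the value in the last set was close to 0.

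**Figure D3:**
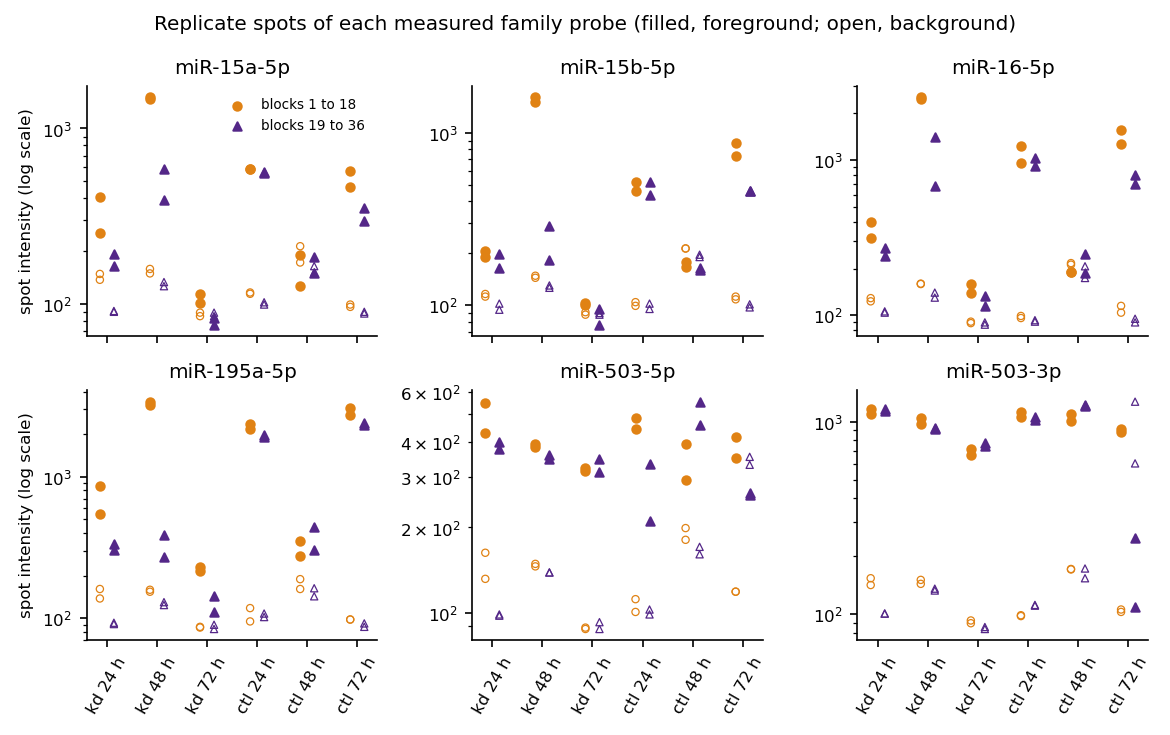
Foreground (filled) and local background (open) intensity of each replicate spot on a log axis, for the 6 measured family probes on the 3 knockdown (kd) and 3 control (ctl) arrays, with circles for blocks 1 to 18 and triangles for blocks 19 to 36. On the knockdown array of 48 h the circles of miR-195a-5p lie far above the triangles, 3292.5 against 329.5 on average, and on the control array of 72 h the open triangles of miR-503-3p rise to 1268.

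The low value of miR-503-3p in the control at 72 h came from 1 set of blocks as well. Its spots there had 776 and 812 in the first set and -358 and -1159 in the last, where local background was 607 and 1268. In the same blocks 14 of 17 other tested probes were at least 2-fold brighter in the first set on that array. In the first set alone the 72 h difference of miR-503-3p was -1.01, and in the last set 3.06, so its sign depends on the spots used. For miR-503-5p these were -0.51 and 1.90. At 24 and 48 h both arms of miR-503 differed between the lines by at most 0.51 in either set.

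Over the 6 arrays, Pearson's r of the log2 levels was between 0.85 and 0.99 for every pair of miR-15a-5p, miR-15b-5p, miR-16-5p and miR-195a-5p, the highest for miR-15b-5p with miR-16-5p. It was 0.94 between the arms of miR-503, and between -0.46 and -0.15 for the pairs of these 4 with an arm of miR-503. Without the control array of 72 h, where both arms of miR-503 had high local background in the last blocks, r was 0.747 between those arms. Over those 5 arrays the pairs across ranged from 0.09 to 0.40, so their negative r rested on that array. The 4 members had r of 0.897 to 0.999 with each other there. The points are arrays, shared by all probes along with their scaling and background. miR-16-5p and miR-15b-5p, with 14 of 22 positions alike, had r = 0.991, and miR-16-5p and miR-195a-5p, with 19 of 21 alike, had r = 0.909.

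**Figure D4:**
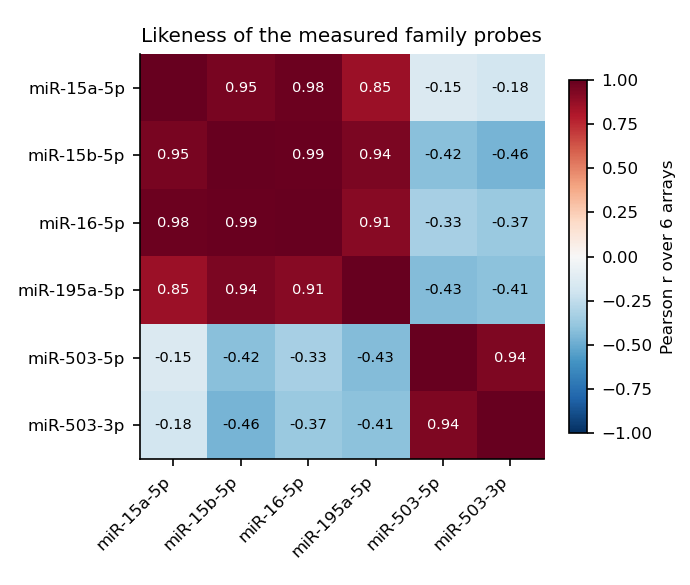
Pearson's r over the 6 arrays between the log2 levels of each pair of measured family probes (colour scale from -1 to 1, values printed). The 4 probes of the miR-15, miR-16 and miR-195 branch have r of 0.85 to 0.99 with each other and below 0 with both arms of miR-503, where r is 0.09 to 0.40 once the control array of 72 h is left out.

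The pattern was shared outside the family. The measured probes most like the mean of the 5 measured 5p members were miR-22-3p (r = 0.996), miR-30b-5p (0.992), let-7g-5p (0.985), miR-193a-3p (0.984) and miR-93-5p (0.982), over the same 6 arrays. For miR-22-3p the differences between the lines were -1.61, 2.88 and -2.96 at 24, 48 and 72 h, and for let-7g-5p -1.70, 2.56 and -2.16. In all, 34 of the 365 other probes (9.32%) had r of at least 0.9, and the median was 0.17.

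The offset relatives miR-103 and miR-107 carry the same letters 1 base earlier, so their seed is shifted, as in miR-103-3p.
miR-103-3p (chr11:35782447-35782469, plus strand, and a copy on chr2): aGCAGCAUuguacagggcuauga

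Of their 5 probes 1 was measured, miR-103-3p, with differences of -0.52, 1.22 and 1.36 and so no return below 0 at 72 h. Of the 9 probes for the X-linked neighbours of miR-322 and miR-503 (miR-351, miR-542, miR-450a and miR-450b) 2 were measured. miR-351-5p differed by 0.44, -1.24 and -0.05 and miR-450a-1-3p by -0.76, 0.30 and 1.06 at 24, 48 and 72 h. None of these 3 probes passed the line comparison or the 48 h term.

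Markers of the cells were read as intensity summed over all probes of a list, measured or low. Negative intensities added nothing to a sum. Of 17 colon epithelium probes 2 were measured, miR-141-5p and miR-200c-3p, and 13 reached 50 on no array, so most of these epithelial markers were not measurable in this carcinoma line. The sum over all 17 ran from 111 to 572.5 in the knockdown and from 91 to 258 in the control, so it includes low probes. Of 9 blood cell probes 3 were measured, miR-142-3p, miR-142-5p and miR-150-5p, with sums of 1058 to 2554 and 1249 to 1998, and all probes of miR-144, miR-223 and miR-451a stayed under 50. Of 9 fibroblast and smooth muscle probes 7 were measured, with sums of 1552 to 5408 and 3601 to 5442. In that list 2 probes passed the 48 h term, miR-143-3p and the shared probe of miR-199a-3p and miR-199b-3p, with r = 0.813 and 0.905 to the family's mean. The other 5 measured probes had r of 0.491 (miR-214-5p), 0.338 (miR-199b-5p), 0.064 (miR-145a-5p), 0.056 (miR-199a-5p) and -0.445 (miR-214-3p). At 48 h miR-199a-5p, miR-199b-5p and miR-214-3p were lower in the knockdown, by -1.23, -0.84 and -0.51, where the 4 family members were higher. The list thus did not move as one with the family, and its part in the family's result was not tested.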

How the data were processed

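Per the file headers, the authors deposited foreground intensity and background-subtracted intensity for 15840 spots on each of 6 arrays, unscaled. The authors also deposited a ratio per probe, used only as an alternative, as log2 after adding 0.15. Scanner software and array version are not given in the sources used here. Each column was matched to its array through the number in the sample description.

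normexp (offset 50) corrected background in limma 3.58.1 under R 4.3.3. The 4 spots of a probe were averaged as log2, and arrays were quantile normalised over 3438 mouse, viral and unnamed probes. limma with trend and robust variances was fitted to all 372 measured probes, with Benjamini-Hochberg adjustment over them. The fit was also run on simulated data with independent normal noise, which do not hold the block differences of these arrays. Time entered as a factor, except in the slope fit, where it entered as a number of days beside the line. Deviations of same-time arrays from their line means correlated at -0.30, -0.52 and -0.34. Replication is 1 array per line and time, so the number of arrays limits precision.

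Every member was named. The 5 most alike probes were chosen by Pearson's r with the mean of measured 5p members sharing bases 2 to 7. Members, lists and tests were chosen with earlier results of these data known. Alternatives covered background, offset, scaling, filters, values, variance model, time block, fold, spots and left-out time points. Array weights, the 2 sets of blocks and correlations without the control array of 72 h were added after seeing the data.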

Additional observations from a re-analysis of the deposited data

Results flagged for a closer look

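The 48 h term was 5.04 on the log2 scale for miR-16-5p (limma adjusted p = 0.0172) and 4.35 for miR-195a-5p (limma adjusted p = 0.0232), which marked a different effect at 48 h. The term was set up with the opposite 48 h differences known, rests on 1 array of each line at 48 h and leaves 1 residual degree of freedom, so these p-values are no independent support. In blocks 1 to 18 alone the terms were 5.59 and 5.45 (limma adjusted p = 0.000843 and 0.00107). In blocks 19 to 36 alone they were 4.40 and 3.14 (limma adjusted p = 0.204 and 0.396), and no probe of the 372 passed.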

How the results depend on the processing

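For the line comparison 0 probes were called under every alternative run except leaving out time points, which gave 0 to 3 (3 without 48 h). The fit with no replicate block for time also called 0. The slope per day called 0 under every alternative run, including each left-out time point. The 48 h term called 13 probes, and 5 under median scaling, 23 under cyclic loess, 28 with the authors' ratio, 21 with no filter, 22 with no trend or robust estimation and 1 with a filter of 50 on all 6 arrays. It called 26 in blocks 1 to 18 and 0 in blocks 19 to 36. miR-195a-5p no longer passed it under plain subtraction (limma adjusted p = 0.0582), median scaling (0.0770) or the 6-array filter (0.0608). miR-15b-5p and miR-15a-5p gained a call with the authors' ratio (0.0406 for both), without trend or robust estimation (0.0227 and 0.0269) and in blocks 1 to 18 (0.0121 and 0.0287). miR-16-5p passed under every other alternative that kept it and used both sets of blocks, with adjusted p from 0.000694 to 0.0441, and the 6-array filter left it out.

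Probes at 2-fold or more at 24, 48 and 72 h numbered 46, 153 and 199. With plain subtraction there were 212, 304 and 352 and at 3-fold 9, 69 and 96. The authors' ratio gave 114 at 24 h and 267 at 48 h. The members' median at 24 h, -1.14, was -2.09 with plain subtraction, -0.98 under median scaling, -1.52 with the authors' ratio and -1.30 in blocks 19 to 36. At 48 h, 1.76, it was 4.36 with plain subtraction, 3.48 with the authors' ratio, 2.77 in blocks 1 to 18 and 0.52 in blocks 19 to 36. At 72 h, -2.05, it was -5.48 with plain subtraction, -2.34 with an offset of 16, -2.33 without scaling, -2.84 with the authors' ratio, -2.39 in blocks 1 to 18 and -1.64 in blocks 19 to 36. Its sign did not turn under any of these. The 72 h difference of miR-503-3p, 1.22, turned to -1.01 in blocks 1 to 18, where local background was low. There the 48 h terms of miR-503-5p and miR-503-3p also turned, to 0.41 and 0.0051, and their line differences to -0.0773 and -0.46. With the authors' ratio the line differences of miR-16-5p and miR-15a-5p turned to 0.0343 and 0.0329. Leaving out a time point gave line differences of -2.15 to 0.63 (miR-16-5p), -1.74 to 0.43 (miR-15b-5p), -1.45 to 0.54 (miR-15a-5p) and -0.16 to 0.69 (miR-503-3p). It gave slopes of -0.41 to 0.0811 (miR-16-5p), -1.02 to 0.55 (miR-195a-5p) and -0.32 to 0.22 (miR-15b-5p). The cause of the other shifts was not tested. Plain subtraction widens differences of probes near background, since values there end at a floor of 1.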
